A study of Homo sapiens with 8 samples.

Results

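The genes described here encode some of the largest cytoskeletal linker proteins and ubiquitin ligases of the cell. They were chosen as a named set of 10 genes among the 57756 genes listed for each library, namely *SYNE1*, *SYNE2*, *DST*, *MACF1*, *PLEC*, *AHNAK*, *HUWE1*, *HERC1*, *HERC2*, and *UBR4*. All 10 passed the filter on low counts, and no measured value entered the choice by rule, although the set was proposed with earlier results of these data in view. An antibody against RPS6, which is part of the small subunit of the ribosome, had been used for RNA immunoprecipitation (RIP), and the RNA pulled down was sequenced beside the input RNA of the lysate. This was done in 4 human cancer cell lines, for which the labels name no treatment: Hep3B from hepatocellular carcinoma (HCC), HCT116 from colorectal cancer, DU145 from prostate cancer, and SW1990 from pancreatic cancer. The 8 libraries form 4 pairs of RIP and input, 1 pair per cell line, so the cell lines serve as replicates and nothing within a line has one. Values of the 4 lines are given throughout in the order Hep3B, HCT116, DU145, and SW1990 unless named. The sources used here describe no pull-down with a control antibody, so a value higher in the RIP is higher than in the input and not higher than in a mock pull-down. For the liver pair the titles of the labels point to Hep3B while their cell line field names Huh7, and the pair is called Hep3B here.

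The messenger RNA of a very large protein carries a long open reading frame, on which many ribosomes can sit at once. Nesprins (*SYNE1* and *SYNE2*) are spectrin repeat proteins of the nuclear envelope that tie the nucleus to the cytoskeleton. Dystonin (*DST*) and *MACF1* are spectraplakins that join actin to microtubules and intermediate filaments, and plectin (*PLEC*) joins intermediate filaments to hemidesmosomes and other structures. *AHNAK* encodes a scaffold at the plasma membrane. *HUWE1*, *HERC1*, and *HERC2* encode ubiquitin ligases with a HECT catalytic domain, and *UBR4* encodes a recognition protein of the N-degron pathway, in which the first residue of a protein marks it for degradation.

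Depth was similar between libraries. Between 35796165 and 54209630 fragments were recovered in the inputs and between 34630363 and 42610074 in the RIP libraries, and a floor of 3 fragments corresponds to between 0.0553 and 0.0866 fragments per 1000000. The cell lines were checked against markers of their tissue, given here as FPKM (fragments per kilobase of transcript and 1000000 fragments, a level per length). *ALB* reached 5030 and *AFP* 291 in the Hep3B input, with *ALB* at most 0.938 and *AFP* listed at 0 in the other inputs. Markers were weaker in the other inputs. In HCT116, *CDX2* was at 6.25 and *VIL1* was listed at 0. In DU145, *KLK2*, *HOXB13*, and *FOLH1* were listed at 0. In SW1990, *KRT19* was at 229 and *SOX9* at 60.6, while *KRT7* at 3.17 and *MUC1* at 1.16 were lower than in DU145 (254 and 76.6), and the intestinal gene *CDX2* was highest there at 86.6. Epithelial *EPCAM*, *KRT8*, and *KRT18* were at 67.0 or more in every input. Another epithelial marker was lower, between 8.40 in HCT116 and 40.8 in Hep3B. The markers therefore leave the line labels of the SW1990 and DU145 pairs in doubt, and both are named as labelled throughout. Calls that change without a cell line are given with each gene.

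Where the transcripts begin is of interest for a ribosomal pull-down, since messenger RNAs of the translation machinery carry a C followed by a run of pyrimidines at the 5′ end. RefSeq lists 20 promoter windows for 9 of the 10 genes. The windows of the 4 genes with a single listed start are shown, because they include the members with the lowest and the highest RIP to input ratio, *AHNAK* and *UBR4*. Each holds 10 bases before the listed start in lower case and the first 20 bases from the start in capitals, 5′ to 3′ on the minus strand of GRCh38.p14, at chr11:62545807-62545836 for *AHNAK*, chr1:19210247-19210276 for *UBR4*, chr15:63833929-63833958 for *HERC1*, and chr15:28322160-28322189 for *HERC2*.
AHNAK: cccccgccccAGAGCCTGGCCCGGCGCCAG
UBR4: ggagggagccGCAGTAGTACGACGGAAGAT
HERC1: cgcctcttacGTCTTTCCCTTTGACAAGTC
HERC2: cccgcccctcGGGCCGCGAGAGGCGCCGGG
None of these starts with a C. Of all 20 windows, 0 began with a C followed by 4 bases that are each C or T, read in the direction of transcription only, against 4.54% of the 22198 windows of protein-coding genes. The letters TATAAA stood on either strand in 2 of the 20 members' promoters of 300 bases. They stood in 9.47% of the 22198 promoters of protein-coding genes and in 11.5% of all 35116 promoters. These are counts of letters at listed starts, and the starts used in these cells were not measured.

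All 10 genes were higher in the RPS6 RIP than in the input. FPKM was higher in the RIP in every cell line for each of the 10, by between 1.48-fold and 26.6-fold. By edgeR with the cell line as a block, all 10 were called higher at an adjusted p under 0.05 and 0 were called lower, also at an unadjusted p under 0.05 and by DESeq2 or limma. Among the 19921 genes tested, 26.5% were called higher and 24.9% lower. The log2 fold changes of the 10 genes had a median of 2.09 and reached from 1.29 to 3.50, where the median of all tested genes was -0.05. Fold changes are relative to a scale that sets most genes near 0, and with library totals alone the median of all tested genes moved by -0.35. The FPKM ranges of the 4 RIP and the 4 input libraries did not overlap for 7 genes and overlapped for *SYNE1*, *DST*, and *AHNAK*. The share of all genes without such an overlap was not counted, so the ranges given for single genes are descriptive only. On the log2((RIP FPKM + 1)/(input FPKM + 1)) scale, 16900 genes reached a mean of at least 1 FPKM, and 33.7% of them were above 0 in all 4 lines.

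**Figure D1:**
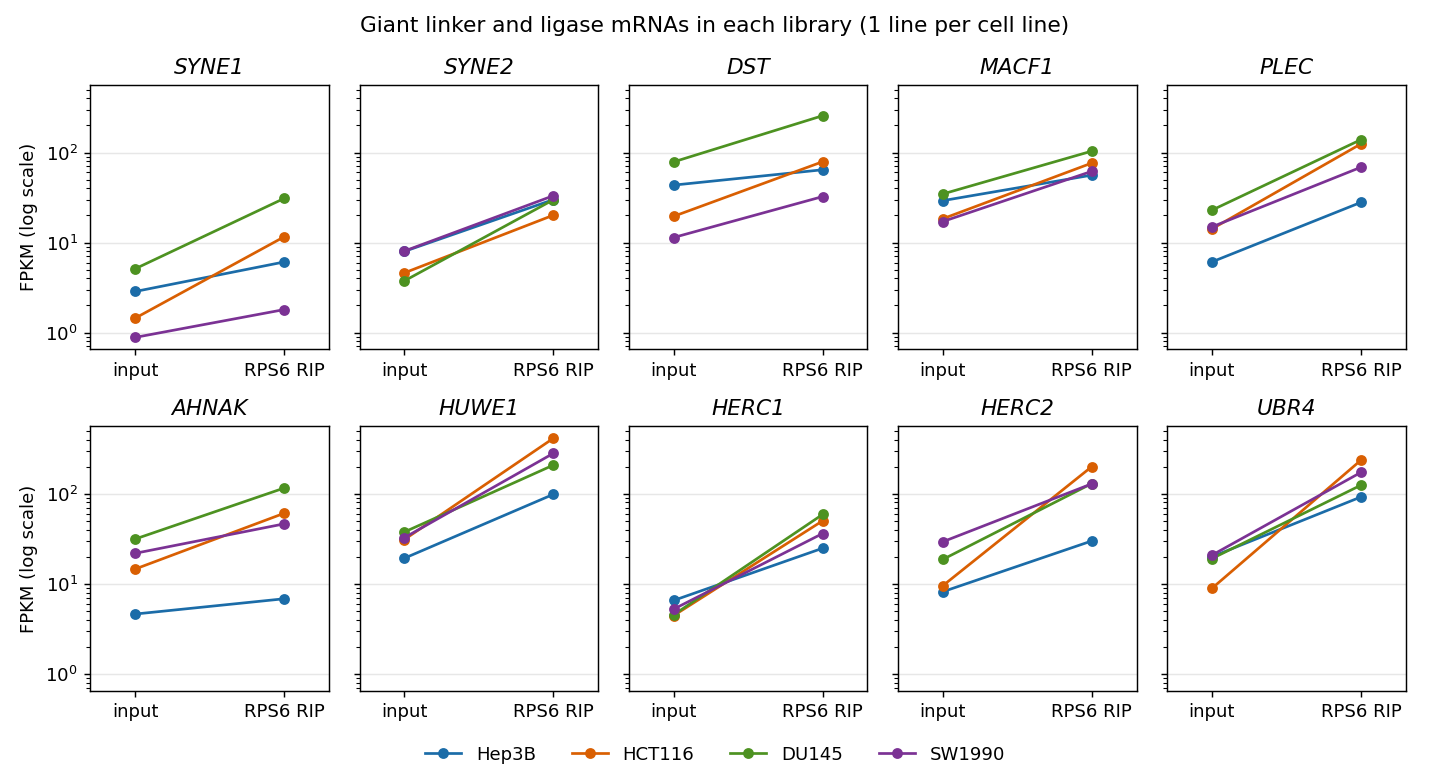
FPKM of the 10 genes (vertical axis, log scale) in the input and the RPS6 RIP library of each cell line, with 1 connected pair of points per cell line and no replicate within a line. All 40 pairs rise from input to RIP, by between 1.48-fold and 26.6-fold.

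The nesprin gene *SYNE1* had the lowest FPKM of the set in 3 of the 4 inputs. Gene positions from here on are the loci listed in human genome version 19 (hg19), which can span neighboring genes. *SYNE1* is listed at chr6:151977825-152958936, a locus that it shares with *ESR1* and *SYNE1-AS1*. Its input FPKM was 2.86 (Hep3B), 1.44 (HCT116), 5.11 (DU145), and 0.884 (SW1990), and RIP FPKM was 6.09, 11.6, 31.0, and 1.80 in the same order. DU145 was highest in both kinds of library and SW1990 lowest in both, so that the RIP value of SW1990 lay below 2 of the 4 inputs. This gave a log2 fold change of 1.87 ± 0.37 (SE, n = 4 pairs; edgeR adjusted p = 0.00178). In SW1990 only 124 input and 213 RIP fragments fell on *SYNE1*, or 3.35 (95% Wilson interval 2.81 to 3.99) and 5.53 (4.84 to 6.33) per 1000000, intervals that do not meet.

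*SYNE2*, the other nesprin, varied less between cell lines. It is listed at chr14:64319682-64805317, a locus shared with *ESR2* among others. Input FPKM was 7.97 (Hep3B), 4.60 (HCT116), 3.75 (DU145), and 8.04 (SW1990), against 30.02, 20.1, 29.9, and 33.2 in the RIP. The 4 RIP values lay within 1.65-fold of each other and all above the inputs. Its log2 fold change was 1.77 ± 0.25 (SE, n = 4 pairs; edgeR adjusted p = 0.00018).

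Of the spectraplakins, *DST* differed most between cell lines. It is listed at chr6:56322784-56819426. The inputs had an FPKM of 43.4 (Hep3B), 19.5 (HCT116), 78.6 (DU145), and 11.4 (SW1990), and RIP FPKM was 64.3, 79.0, 256, and 32.4. The inputs spanned 6.92-fold, and the RIP values of Hep3B and SW1990 lay below the DU145 input. Its log2 fold change was 1.47 ± 0.26 (SE, n = 4 pairs; edgeR adjusted p = 0.000904).

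*MACF1*, at chr1:39546987-39952849, was nearer to even across the lines. Input FPKM was 29.2 (Hep3B), 18.4 (HCT116), 34.6 (DU145), and 17.1 (SW1990), and RIP FPKM was 56.1, 76.4, 104, and 61.8. The lowest RIP value lay above the highest input. Over the lines the log2 fold change was 1.65 ± 0.22 (SE, n = 4 pairs; edgeR adjusted p = 0.000157). Within its locus the files list *KIAA0754* separately, with 17.6% as many counts as *MACF1* and a log2 fold change of 1.36 (adjusted p = 0.00108), and how the authors' counting split fragments between them is not known. Other genes listed inside the loci of the 10 genes held at most 0.543% of the count of their member.

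Plectin mRNA had the highest ratio among the linkers. *PLEC*, at chr8:144989320-145050902, had input FPKM of 6.09 (Hep3B), 14.2 (HCT116), 22.9 (DU145), and 14.9 (SW1990), and RIP FPKM of 27.9, 125, 139, and 68.7. Every RIP library lay above every input. RIP over input had a log2 fold change of 2.31 ± 0.22 (SE, n = 4 pairs; edgeR adjusted p = 2.18e-05).

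*AHNAK* had the lowest log2 fold change of the set and was the only member whose call rested on a single pair. It is listed at chr11:62201015-62323707. Its input FPKM was 4.61 (Hep3B), 14.6 (HCT116), 31.4 (DU145), and 21.8 (SW1990), against 6.82, 60.8, 116, and 46.3 in the RIP. The RIP value of Hep3B lay below 3 of the 4 inputs. Its log2 fold change was 1.29 ± 0.37 (SE, n = 4 pairs; edgeR adjusted p = 0.0134), and without the HCT116 pair it was 0.87 (adjusted p = 0.0583).

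The 4 ligase genes had the highest log2 fold changes, from 2.75 to 3.50 (median 3.05), against 1.29 to 2.31 (median 1.71) for the 5 linkers and *AHNAK*. These ranges did not overlap, and neither did the ranges of RIP and input FPKM of any ligase. Within single lines, log2 FPKM ratios separated the groups in HCT116 only (lowest ligase 3.23, highest linker 3.05). The lowest ligase lay below the highest linker in Hep3B (1.76 and 2.03), DU145 (2.44 and 2.70), and SW1990 (2.10 and 2.13). From TMM-scaled counts the pattern turned. The groups then separated in DU145 (lowest ligase 2.43, highest linker 2.38) and SW1990 (2.94 and 2.21). They overlapped in HCT116 (3.36 and 3.39) and Hep3B (1.94 and 1.96).

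*HUWE1*, at chrX:53559056-53713673, was the most abundant ligase of the set in every RIP library. Its FPKM was 19.2 (Hep3B), 31.0 (HCT116), 37.6 (DU145), and 32.5 (SW1990) in the inputs and 98.7, 414, 208, and 282 in the RIP libraries. Inputs lay within 1.96-fold of each other and RIP values within 4.20-fold, with HCT116 highest and Hep3B lowest in the RIP. Across the pairs, the log2 fold change was 2.92 ± 0.32 (SE, n = 4 pairs; edgeR adjusted p = 4.41e-05).

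*HERC1*, at chr15:63900816-64126141, was the least abundant ligase. Input FPKM was even across the lines, at 6.52 (Hep3B), 4.43 (HCT116), 4.51 (DU145), and 5.22 (SW1990), and RIP FPKM was 24.8, 50.1, 58.9, and 36.2. DU145 was highest in the RIP and Hep3B lowest, although the Hep3B input was the highest of the 4. This gave a log2 fold change of 2.75 ± 0.25 (SE, n = 4 pairs; edgeR adjusted p = 1.79e-05).

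*HERC2*, at chr15:28356185-28567298, had input FPKM of 8.15 (Hep3B), 9.50 (HCT116), 18.6 (DU145), and 29.3 (SW1990), and RIP FPKM of 29.9, 200.3, 130.01, and 129. The lowest RIP value, in Hep3B, was barely above the highest input, in SW1990. Its log2 fold change was 3.18 ± 0.30 (SE, n = 4 pairs; edgeR adjusted p = 2.13e-05). The genome holds partial copies of *HERC2* whose fragments may be assigned to the wrong copy, so its level is uncertain. Of 8 listed copies, 7 were tested and 5 were called higher in the RIP and 0 lower by edgeR (6 and 0 at an unadjusted p under 0.05, 6 and 0 by DESeq2). Log2 fold changes were 1.53 for *HERC2P2*, 1.92 for *HERC2P3*, 1.91 for *HERC2P9*, 2.37 for *HERC2P4*, and 3.04 for *HERC2P10*, while *HERC2P5* had 1.58 (adjusted p = 0.0866) and *HERC2P8* had 1.23 (adjusted p = 0.138). *HERC2P4* and *HERC2P10* were low in the inputs, at up to 0.164 and 0.517 FPKM, with SEs of 0.72 and 0.55. *HERC2P7* was not tested. In Hep3B the input FPKM of *HERC2P3*, at 45.6, was above that of *HERC2* itself.

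*UBR4*, at chr1:19398603-19536770, had the highest log2 fold change of the 10 genes and ranked 38 of all 19921 tested. Input FPKM stood at 19.96 (Hep3B), 8.89 (HCT116), 19.04 (DU145), and 20.8 (SW1990), and RIP FPKM was 92.2, 236, 125, and 173. HCT116 was lowest in the inputs and highest in the RIP, a difference of 26.6-fold, while the other lines differed by between 4.62-fold and 8.33-fold. Over the lines the log2 fold change was 3.50 ± 0.41 (SE, n = 4 pairs; edgeR adjusted p = 6.25e-05).

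Cell lines differed in the size of the ratio. The log2 FPKM ratio was highest in HCT116 for 7 genes and in DU145 for *SYNE1*, *SYNE2*, and *HERC1*, and it was lowest in Hep3B for 9 genes and in SW1990 for *SYNE1*. From TMM-scaled counts, HCT116 was highest for all 10 genes, so the order of DU145 and HCT116 for those 3 genes turned with the scale. Fragments on the 10 genes made up 0.130% of the Hep3B input (95% Wilson interval 0.128% to 0.131%) and 0.331% of its RIP library. HCT116 had 0.141% and 1.06%, DU145 0.365% and 1.13%, and SW1990 0.171% and 0.794%. Each line has 1 pair, so differences between lines could not be tested, and intervals cover counting error only.

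Other long messenger RNAs were also higher in the RIP. The comparison list held 95 gene entries chosen by hand for their long coding regions, of which 94 were tested and 76 (80.9%) were called higher and 6 lower, with a median log2 fold change of 1.71. This share is above the 26.5% of all tested genes, so the 10 of 10 members are read against 80.9% and not against all genes alone. Median log2 FPKM ratios of the 10 members were 1.77 (Hep3B), 2.71 (HCT116), 2.50 (DU145), and 2.01 (SW1990). Those of the other long messenger RNAs were 1.37, 2.01, 1.88, and 1.67, and those of protein-coding genes 0.29, 0.14, 0.16, and 0.18. The median of all 10 members was thus above that of the other long messenger RNAs in each line. This did not hold for the linkers and *AHNAK* taken alone. Their medians were 0.90, 1.99, 2.12, and 1.61, above the other long messenger RNAs in DU145 only and close to them in HCT116 (2.01). Medians of the 4 ligases were 1.97, 3.98, 2.69, and 2.79. This order is given for FPKM ratios only, and ratios of single members from TMM-scaled counts differed.

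**Figure D2:**
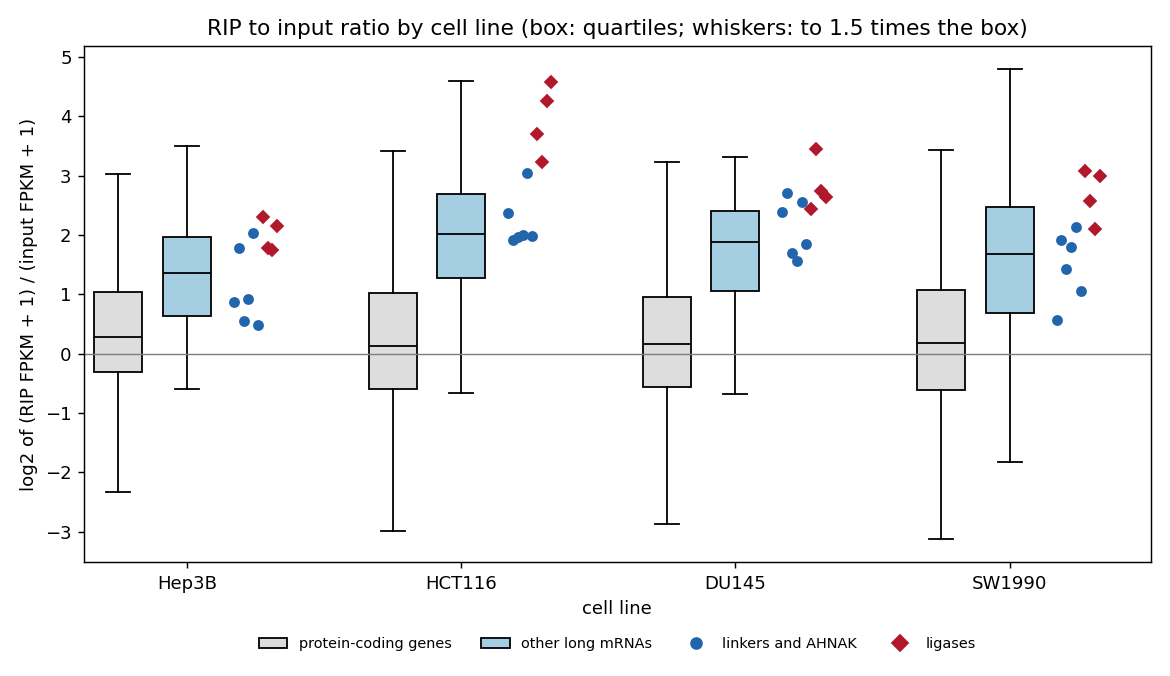
Log2 ratio of RIP to input FPKM (1 added to both, vertical axis) in each cell line for protein-coding genes and other long mRNAs with a mean of at least 1 FPKM (boxes with quartiles, whiskers without outlying genes) and for each of the 10 members (points). The ligases lie above the median of the other long mRNAs in all 4 lines, and Hep3B has the lowest members' median, 1.77.

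The difference between members and other long messenger RNAs was tested gene by gene, with the scale of each library set so that the median of the other long messenger RNAs was 0. On that scale the 4 ligases remained higher in the RIP by edgeR, *UBR4* with a log2 fold change of 1.75 (adjusted p = 0.000965), *HERC2* with 1.43 (adjusted p = 0.00188), *HUWE1* with 1.17 (adjusted p = 0.0187), and *HERC1* with 0.999 (adjusted p = 0.0138). Of all 19921 genes tested, 226 were called higher and 12635 lower on that scale. It put the median of all tested genes at -1.80, which lowers the share called higher. Calls among the other long messenger RNAs on that scale are not given here. The linkers and *AHNAK* did not pass the threshold. *PLEC* had 0.56 ± 0.39 (SE; adjusted p = 0.204), *SYNE1* 0.14 ± 0.39 (adjusted p = 0.763), and *SYNE2* 0.01 ± 0.35 (adjusted p = 0.982). *MACF1* had -0.11 ± 0.38 (adjusted p = 0.818), *DST* -0.29 ± 0.40 (adjusted p = 0.536), and *AHNAK* -0.46 ± 0.43 (adjusted p = 0.352). These standard errors leave room for differences in either direction. By position, 2 of the 94 other long messenger RNAs had a higher log2 fold change than *UBR4*, 9 than *HERC2*, 15 than *HUWE1*, and 18 than *HERC1*, against 35 for *PLEC* and 60 for *AHNAK*.

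Length itself moved with the ratio across genes. The files give no transcript length, and relative length was taken as the estimated count divided by FPKM, with the median protein-coding gene at 1. Protein-coding genes under 0.5 had a median log2 fold change of -0.74 (n = 2180, 10.4% called higher), those from 1 to 2 had 0.29 (n = 5255, 36.4% higher), those from 2 to 4 had 0.83 (n = 1859, 49.0% higher), and those at 4 or more had 1.41 (n = 250, 58.8% higher). The members fell into the 2 longest classes, 5 in each. All 5 members in the class from 2 to 4 (*SYNE1*, *HERC1*, *MACF1*, *HERC2*, and *DST*) were above its median of 0.83, and of those at 4 or more (*SYNE2*, *HUWE1*, *PLEC*, *UBR4*, and *AHNAK*) only *AHNAK*, the longest by this measure at 13.1, was below the median of 1.41. The part of length in the members' ratios was not tested beyond these comparisons.

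**Figure D3:**
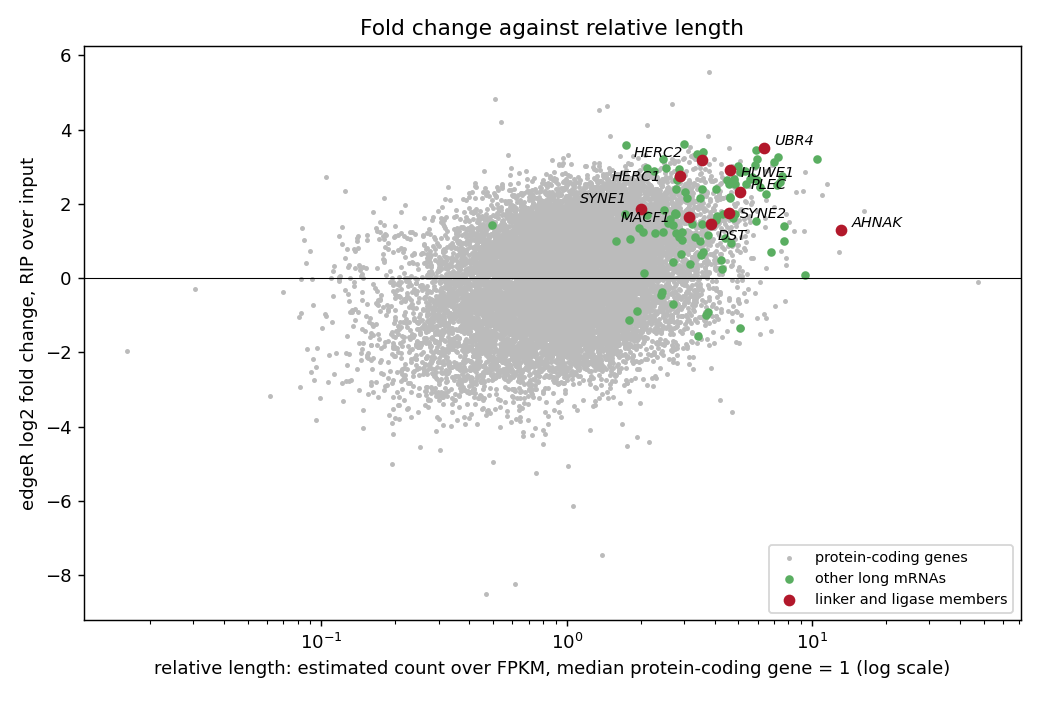
Log2 fold change of RIP over input (edgeR, vertical axis) against relative length (horizontal axis, log scale, the median protein-coding gene at 1) for tested protein-coding genes, the other long mRNAs and the 10 members. The cloud rises with length, from a median of -0.74 under 0.5 to 1.41 at 4 or more, and the members lie between 1.29 and 3.50.

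A second comparison took every protein-coding gene with a relative length of at least 3 and a mean of at least 1 FPKM, 528 genes without the members. Of these, 342 (64.8%) were called higher and 46 lower, with a median log2 fold change of 1.24. With the median of these genes at 0, 6 members remained higher by edgeR. They were *UBR4* with a log2 fold change of 2.32 (adjusted p = 0.000333), *HERC2* with 1.998 (adjusted p = 0.000153), *HUWE1* with 1.74 (adjusted p = 0.000619), *HERC1* with 1.57 (adjusted p = 0.000202), *PLEC* with 1.13 (adjusted p = 0.00234), and *SYNE2* with 0.58 (adjusted p = 0.0449). *SYNE1*, *MACF1*, *DST*, and *AHNAK* had 0.71, 0.47, 0.28, and 0.11 and did not pass the threshold. On this scale, 1265 of all 19921 genes tested were called higher and 10113 lower, with the median of all tested genes at -1.23. The calls of *PLEC* and *SYNE2* against long messenger RNAs therefore depended on which long messenger RNAs were compared.

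Relative length also differed between libraries for the same gene, which changes FPKM against counts. It ranged from 1.43 to 5.399 for *SYNE1* and from 1.63 to 6.83 for *HERC2*, against 4.10 to 5.44 for *HUWE1*. For *SYNE2* in Hep3B, the log2 ratio was 1.79 from FPKM and 0.89 from TMM-scaled counts per 1000000 (CPM). For *HERC2* in SW1990 it was 2.10 and 3.20. All 10 members were above 0 in all 4 lines on both scales. On library totals without TMM, *AHNAK* in Hep3B was slightly lower in the RIP, at 134 against 138 fragments per 1000000 (log2 ratio -0.05), and the other members stayed above 0 in every line.

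Individual long messenger RNAs covered a wide range. The highest by the rule were *PRPF8*, a core protein of the spliceosome, with a log2 fold change of 3.62, the polycystin gene *PKD1* with 3.59, and *HSPG2*, which encodes the basement membrane protein perlecan, with 3.45. The 6 that were lower included *GOLGB1*, encoding the Golgi protein giantin, with -1.35 (adjusted p = 0.000314) and the tumor suppressor gene *APC* with -0.88 (adjusted p = 0.00363), which were lower in all 4 lines. The other 4 were *CENPF*, *CENPE*, *ASPM*, and *BRCA2*, which were named after their values were seen and were not lower in every line. By limma on FPKM, 0 of the list were called lower and 1 was lower at an unadjusted p under 0.05. Nearest to the 4 medians of the members, by Euclidean distance over the 4 log2 ratios, were *VPS13D* (0.556) and an entry of *KMT2B* (0.573). That entry had a log2 fold change of 2.64 and a relative length of 5.96. Another *KMT2B* entry in the list had 1.43 and a relative length of 0.49.

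Genes related to the members by role were described from fixed lists, and some of their genes are also in the list of other long messenger RNAs. Among plakins and other partners of intermediate filaments and microtubules, 10 of 12 were higher and 0 lower by edgeR (0 also at an unadjusted p under 0.05 and by DESeq2), with a median log2 fold change of 1.26. Integrin β4 (*ITGB4*), the hemidesmosome receptor that plectin binds, rose with 3.14 (adjusted p = 1.27e-05), and epiplakin (*EPPK1*) with 2.64 (adjusted p = 2.41e-05). Of actin linkers and the spectrin repeat family, 16 of 17 were higher and 0 lower by edgeR (0 also at an unadjusted p under 0.05 and by DESeq2), with a median of 1.89. Filamins, which crosslink actin, led this list, *FLNA* with 3.39 and *FLNC* with 2.97, although *FLNC* was nearly absent in SW1990, at 0.09999 FPKM in the input and 0.164 in the RIP.

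Genes of the nuclear envelope, only some of which encode partners of the nesprins, were mixed, with 6 of 13 higher, 3 lower, and a median of 0.30. Lamin A/C (*LMNA*) had a log2 fold change of 2.65 and *SUN2*, which encodes an inner nuclear membrane protein that anchors nesprins, had 2.18. *TOR1AIP1* and the lamin B receptor gene *LBR* fell by 0.92 and 0.75 on the log2 scale (adjusted p = 0.00143 and 0.00704). Without the Hep3B pair 5 genes of this list were lower, and without the DU145 pair 1 was. Of 8 *AHNAK* partners, 5 were higher and 2 lower, with a median of 1.43. The related giant gene *AHNAK2* had 3.20 and *DYSF*, which encodes the membrane repair protein dysferlin, had 2.79, while *S100A10* and *S100A11*, which encode small calcium-binding proteins, fell by 2.09 and 1.35. *AHNAK2* and *DYSF* were at 0.0133 and 0.133 FPKM in the Hep3B input, below 1 FPKM as in some other inputs.

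Among other HECT ligases, 12 of 22 were higher and 2 lower, with a median of 0.68. *HECTD4* had a log2 fold change of 3.04 and *WWP2* 2.28, and *HERC3*, a small relative of *HERC1* and *HERC2*, fell by 0.88. It was lower in the RIP in each line, with FPKM of 24.8, 41.7, 28.1, and 60.4 in the inputs and 14.7, 19.5, 12.8, and 25.4 in the RIP. Members of the HECT family therefore did not all change in 1 direction. Among N-degron and other giant ligases, 8 of 11 were higher and 2 lower, with a median of 1.33. The giant ligase gene *RNF213* had 3.20 and *CUL7*, a cullin scaffold, 2.68, and *ATE1*, which adds arginine to N-degron substrates, fell by 1.28. Without the HCT116, the DU145, or the SW1990 pair, 1 gene of that list was lower. No test compared the families with each other.

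**Figure D4:**
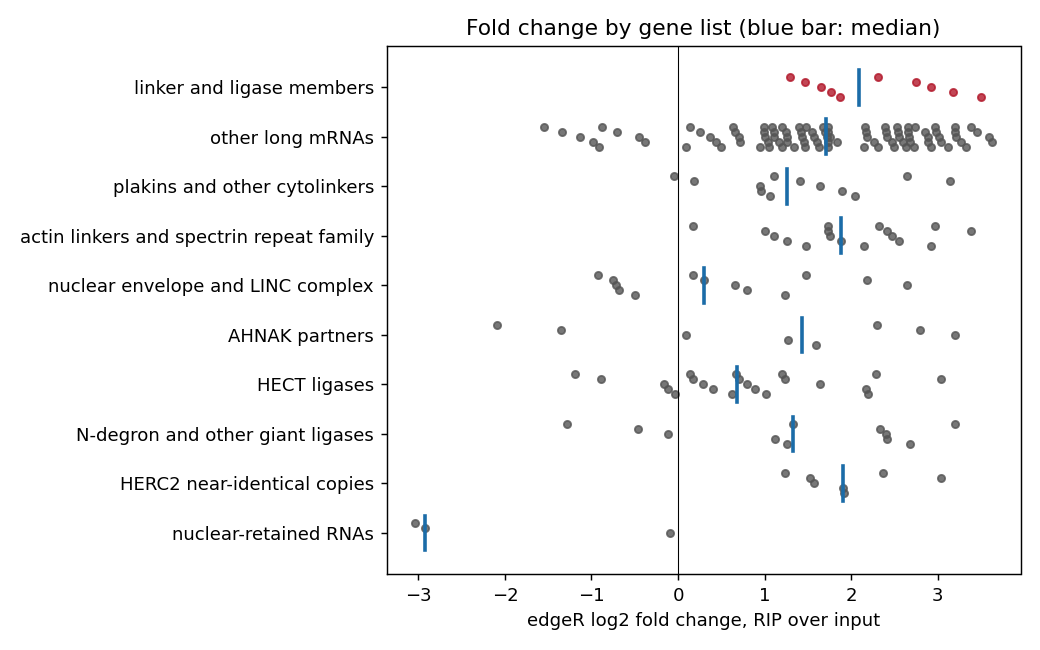
Log2 fold change of RIP over input (edgeR, horizontal axis) of each tested gene, by list (vertical axis), with each median as a blue bar. The members lie between 1.29 and 3.50 and the other long mRNAs have a median of 1.71, while nuclear-retained RNAs have a median of -2.93.

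Of the RNAs known to stay in the nucleus, *MALAT1* and *NEAT1* were lower in the RIP. Of 3 tested, 0 were higher by edgeR (0 also at an unadjusted p under 0.05 and by DESeq2) and 2 lower, with log2 fold changes of -3.04 for *MALAT1* and -2.93 for *NEAT1*, while *KCNQ1OT1* had -0.09 (adjusted p = 0.815). *NEAT1* had input FPKM of 240.4 (Hep3B), 44.9 (HCT116), 161 (DU145), and 79.7 (SW1990) and RIP FPKM of 8.49, 6.80, 11.2, and 3.93. The part of nuclear RNA in the inputs in the ratios of the members was not tested.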

How the data were processed

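RPS6 RIP and input RNA of 4 cell lines was sequenced in 8 libraries made with a stranded total RNA kit. Per the labels and the paper, reads were aligned to human genome version 19 with TopHat (TopHat2 2.0.9, with CASAVA 1.8, in the submitters' processing notes), and the counting tool is not given in the sources used here. The authors deposited FPKM, normalized for length and depth, and estimated counts per gene, scaled by 1 factor per library. They also deposited tables per cell line with their own fold changes and p-values, which were not used. The design had assumed raw counts. Estimated counts were rounded and tested with edgeR 4.0.16 (quasi-likelihood, TMM, blocked by cell line, with a minimum mean of 10 counts per gene, Benjamini-Hochberg threshold 0.05) in R 4.3.3. DESeq2 1.42.0 and limma 3.58.1 were alternatives. Cell lines pair the libraries by design, and numbers 1 to 4 stand for Hep3B, HCT116, DU145, and SW1990. Fragments were recovered from the step common to the counts of a library, which left between 92.7% and 94.1% of values whole within 0.02. Intervals and floors cover counting error only, since fragments are not independent molecules. Scripts for the fits were tested on simulated data.

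The members and all lists were chosen with earlier results of these data known. Genes named are the 10 members, the 2 highest and 2 lowest of each list called with the same direction in 4 of 4 lines, the 3 highest and 3 lowest of the other long mRNAs by the same rule, the 3 of these nearest to the members' medians, and the copies of *HERC2* listed above 0. Further genes are named as markers, as neighbors in a locus, or as stated. Protein-coding genes (19182) and promoter windows came from RefSeq (GRCh38.p14), used for names and sequences and not for gene positions. No promoter of *PLEC* was used here. A marker of the cell lines and 1 gene near the members' medians are not reported here. Other steps ran in Python 3.11.15 with pandas 2.3.3, NumPy 2.4.6, and matplotlib 3.10.9.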

Additional observations from a re-analysis of the deposited data

Results flagged for a closer look

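In 2 of 30 groups of 4 values (FPKM in the inputs, FPKM in the RIP libraries, and log2 ratios of each of the 10 genes), a single cell line lay farther from the others than Dixon's 95% critical value allows, and chance gives about 1 in 20. The log2 FPKM ratio of *SYNE2* in DU145 was 2.70, where the other lines lay between 1.79 and 1.92, with a gap of 0.859 of the range. From TMM-scaled CPM the same ratio was 1.88, below that of HCT116 (2.27) and SW1990 (1.97), and the relative length of *SYNE2* was 8.64 in the DU145 input and 4.43 in its RIP library. The input FPKM of *UBR4* in HCT116 was 8.89, where the other inputs lay between 19.04 and 20.8, with a gap of 0.854 of the range. The ratio of *UBR4* in HCT116 was 4.59 from FPKM and 4.81 from CPM.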

How the results depend on the processing

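All 10 members kept a positive log2 fold change of RIP over input under each alternative on the common scale, and 10 were called higher with DESeq2, with limma, with no minimum or a minimum of 50 counts, with library totals, and with recovered fragments. Leaving out each cell line in turn gave between 9 and 10 members and between 72 and 77 other long mRNAs called higher, 0 members and between 6 and 7 other long mRNAs lower. *AHNAK* lost its call without HCT116 only. Without the replicate block of paired libraries, 5 members and 37 other long mRNAs were called higher and 1 other long mRNA lower, and *SYNE1* (1.93, adjusted p = 0.355), *DST* (1.44, 0.369), *MACF1* (1.63, 0.0582), *AHNAK* (1.502, 0.318), and *PLEC* (2.40, 0.0727) lost their calls by edgeR. Over all genes, that fit called 1427 higher and 1344 lower, against 5282 and 4960 with the block. Library totals in place of TMM called 3888 higher and 6384 lower, or 37.9% of calls higher against 51.6%. With no minimum on counts the median of all genes moved by -0.53, and by limma on FPKM by 0.18 and 0.20. Relative to the other long mRNAs, *DST* (-0.29), *MACF1* (-0.11), and *AHNAK* (-0.46) turned negative. By limma on FPKM, with either pseudocount, 0 other long mRNAs were called lower. Their median log2 ratio moved to 0.95 in Hep3B with CPM and to 2.29 in HCT116 with a pseudocount of 0.1 FPKM. Without TMM, CPM gave 0.75 for them in Hep3B and 1.77 for the members in DU145. With long genes taken from the deposited table the long mRNAs' median was 0.81, 1.08, 1.02, and 1.12 in the order of the lines. The causes were not tested. Among fold changes of single genes, 516 kept their direction and side of the threshold and 41 lost their call. Of the counts of gene lists by role, 168 stayed within 1.5 times and 24 did not. Classes by relative length, CPM with and without TMM, and the scale set on table-derived long genes were chosen after the data were seen. Protein length thresholds and classes were not run, because no protein table was used here. Depth limits *SYNE1* in SW1990 most, with 124 fragments.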
